A study of Mus musculus with 9 samples.

Results

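The genes described here are 9 members of the machinery that cuts and remodels proteins outside the cell: the matrix metalloproteinases Mmp2, Mmp12, Mmp14 and Mmp19, the disintegrin metalloproteinases Adam8 and Adam17, and the tissue inhibitors of metalloproteinases Timp1, Timp2 and Timp3. They were taken by symbol from a table of 26770 gene rows, and Mmp8 and Mmp9, which neutrophils store in granules, were left out. Expression was measured by RNA sequencing of spleen-derived monocytes of WT mice, with 3 libraries in each of 3 groups. In the LPS with octanal group the cells were primed with low-dose lipopolysaccharide, the bacterial outer membrane component that Toll-like receptor 4 detects, and then received the aldehyde octanal at 20 µM. In the LPS group they received lipopolysaccharide alone, at 40 ng/ml for 5 hours. The untreated group received the solvent DMSO. The series text gives 18 hours of octanal and DMSO at 1 in 1000 for the whole group, whereas the sample labels count up to 18, 19 and 20 hours and to 1 in 1000, 1001 and 1002. Strain, age, sex and the number of animals are not given in the labels used here. The time in culture is not matched between the octanal and LPS groups, and DMSO is named only for untreated samples. Octanal, culture time and solvent therefore cannot be told apart, and neither can LPS and solvent in LPS against untreated.

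Matrix metalloproteinases are zinc enzymes that cleave collagens, elastin, laminins and many soluble or surface proteins, and are made as inactive precursors. ADAM proteases sit in the membrane and release the outer parts of other membrane proteins, of which tumour necrosis factor is the best known in monocytes. TIMP proteins bind the active site of matrix metalloproteinases and block it. In the monocyte lineage Mmp12 is known as a product of macrophages and Adam8 and Adam17 as surface proteases.

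The 6 proteases share a zinc-binding site in which 3 histidines hold the catalytic metal. It was found once in the coding sequence of each of the 6 and in none of the 3 inhibitors, and it is shown because it is the part that makes these genes a group. The coding strand is given from GENCODE M21 transcripts on GRCm38, with the codons of the 3 histidines in capitals.
Mmp2: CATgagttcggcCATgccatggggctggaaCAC
Mmp12: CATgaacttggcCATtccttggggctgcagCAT
Mmp14: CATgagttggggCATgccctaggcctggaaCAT
Mmp19: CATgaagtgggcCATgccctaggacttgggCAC
Adam8: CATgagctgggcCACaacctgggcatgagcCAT
Adam17: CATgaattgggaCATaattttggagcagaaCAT

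Each site covers 33 bases within a single exon. The sites lie at chr8:92839279-92839311 in exon 8 of Mmp2, chr9:7352914-7352946 in exon 5 of Mmp12, chr14:54437627-54437659 in exon 5 of Mmp14 and chr10:128795673-128795705 in exon 5 of Mmp19. Those of the ADAM genes are at chr7:139987893-139987925 in exon 11 of Adam8 and chr12:21336732-21336764 in exon 12 of Adam17, both on the minus strand. The most alike pair was Mmp2 and Mmp14, with 27 of 33 bases identical, and the least alike was Adam8 and Adam17, with 19. On GRCm38 the inhibitor genes lie at chrX:20870166-20874735 on the plus strand for Timp1, chr11:118301069-118355740 on the minus strand for Timp2 and chr10:86300372-86349506 on the plus strand for Timp3, and all 9 genes are annotated as protein coding.

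Total counts were 29594291 to 38388421 per library, and 15447 genes passed the filter on low counts, 8 of the 9 genes among them. Timp1 did not. The labelled cell type was checked with a list of classical monocyte markers. Lyz2 and Itgam were abundant in all groups, at 3395 and 1568 CPM (counts scaled to library size) on average in LPS with octanal, 1433 and 560 in LPS, and 6609 and 2135 in untreated libraries. The defining marker Ly6c2 averaged 0.875 ± 0.217 CPM in LPS with octanal and 2.95 ± 4.29 CPM in LPS libraries, against 140 ± 125 CPM in untreated libraries (SD, n = 3 each), where it ranged from 2.82 to 249. Markers of other cells were present as well. The summed level of 15 neutrophil markers was 6114 to 13750 CPM in LPS with octanal, 1896 to 2348 in LPS and 14040 to 27310 in untreated libraries, and that of 8 T cell markers 575 to 846 in LPS with octanal, 934 to 1155 in LPS and 116 to 535 in untreated libraries. In bulk RNA, fewer cells of a type and less RNA per cell cannot be told apart.

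Levels were compared between genes in FPKM, fragments scaled by transcript length and library size, as deposited. Adam8 was the highest of the 9 in untreated libraries, at 246 ± 36.5 FPKM, and Adam17 was next, at 85.1 ± 13.6 (SD, n = 3). Mmp19, Mmp14, Mmp12 and Timp2 came after them with means of 21.3, 20.3, 18.3 and 18.3 FPKM and overlapping ranges. Timp3 followed at 1.23 ± 0.540, Mmp2 at 0.341 ± 0.0828 and Timp1 at 0.0833 ± 0.144 FPKM.

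The order differed in the treated groups. In LPS with octanal libraries Adam8 averaged 184 ± 35.4 and Adam17 140 ± 22.9 FPKM, and their ranges overlapped, whereas in LPS libraries, at 137 ± 3.19 and 87.3 ± 20.3 FPKM, and in untreated libraries every value of Adam8 exceeded every value of Adam17. Mmp14 stood alone after them in LPS with octanal libraries at 23.0 ± 9.77 FPKM, with Timp2 at 6.95, Mmp12 at 6.38, Mmp2 at 3.67 and Mmp19 at 3.62 behind it. In LPS libraries Mmp14 was at 9.29 ± 2.30 FPKM and its range overlapped that of Mmp12 at 7.11 ± 1.55. Mmp2 was thus above Timp3 in both treated groups (0.665 FPKM for Timp3 in LPS with octanal, 0.633 in LPS) and below it in untreated libraries. Timp1 was the lowest of the 9 in every group, at 0.253 FPKM in LPS with octanal and 0.0585 FPKM in LPS libraries.

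**Figure D1:**
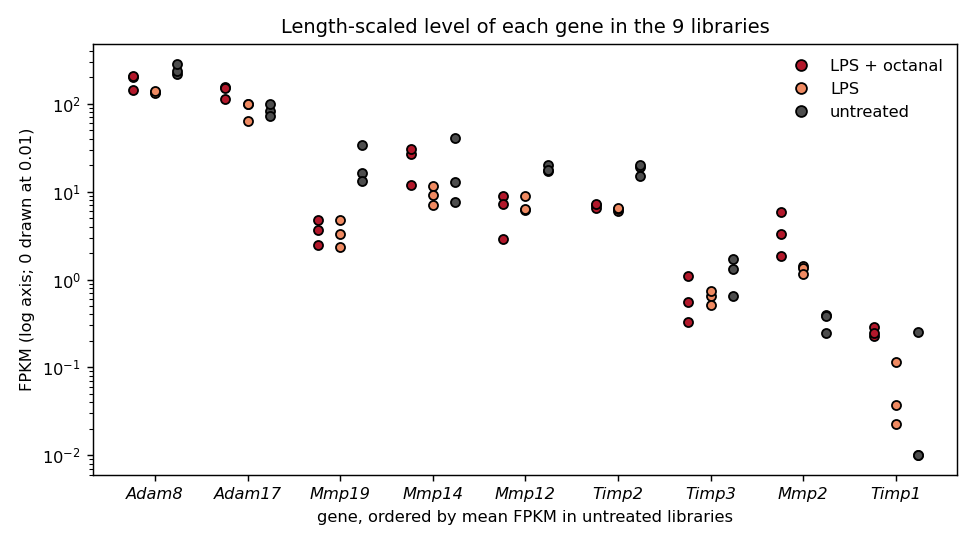
FPKM of the 9 genes on a log axis, with a point for each library and the groups LPS with octanal, LPS and untreated side by side for each gene. Adam8 and Adam17 lie above all other genes in every group, and Mmp2 lies above Timp3 in both treated groups and below it in untreated libraries; values of 0 for Timp1 are drawn at the bottom of the axis.

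The first comparison set low-dose LPS against untreated cells, for which alone DMSO is named. Against untreated cells LPS was accompanied by lower Mmp12, Mmp19, Timp2 and Adam8 and by higher Mmp2, so 5 of the 8 genes tested passed the threshold, an adjusted p under 0.05 in edgeR's quasi-likelihood test over all genes. Of all genes tested 32.8% passed, 15.2% higher and 17.6% lower, beside which the 9 genes stand at 1 higher and 4 lower. Of the calls over all genes 46.4% were higher, against 59.8% when deposited values were tested on the log2(FPKM + 0.1) scale. The median log2 fold change was -1.14 over the 8 tested and 0.01 over all genes tested. The libraries of both groups did not overlap for the same 5 genes, which held for 51.5% of all genes tested. With each library left out in turn, 4 to 6 of the genes were called.

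Mmp2, or gelatinase A, degrades denatured collagen and basement membrane type IV collagen. In LPS libraries 1, 2 and 3 it had 4.32, 4.38 and 3.65 CPM, against 1.37, 0.818 and 1.35 CPM in untreated libraries. Every LPS library was above every untreated one, and the LPS values lay close together. Mmp2 rose by 1.80 on the log2 scale (SE 0.417, adjusted p = 0.0133), and with limma-voom the adjusted p was 0.0682. Counts were low, at 440 reads over the 3 LPS libraries and 114 over the 3 untreated ones.

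Mmp12, the macrophage elastase, had 21.5, 22.6 and 31.6 CPM in LPS libraries, against 67.0, 72.9 and 70.5 CPM in untreated libraries. The untreated values were nearly alike and all above the LPS values. Mmp12 fell by 1.48 on the log2 scale (SE 0.340, adjusted p = 0.0130). Without LPS library 1 the change was -1.39 with an adjusted p of 0.0512.

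Mmp19 is a metalloproteinase of basement membrane and other matrix proteins that myeloid cells also carry. It had 16.3, 11.6 and 7.89 CPM in LPS libraries, against 59.7, 119 and 51.0 CPM in untreated libraries. The lowest untreated value was above the highest LPS value, and the untreated libraries spread widely because of library 2. It fell by 2.69 on the log2 scale (SE 0.406, adjusted p = 0.00249), the largest change among the 8 genes tested in this comparison. Mmp19 shares 789 exon bases with Tmem198b on the opposite strand, which had 172 to 518 counts per library and was not called in any comparison; whether reads were counted by strand is not given in the sources used here.

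Timp2 both inhibits metalloproteinases and, bound to Mmp14 on the cell surface, takes part in activating pro-Mmp2. The LPS libraries had 22.8, 24.7 and 24.7 CPM, against 78.8, 59.0 and 86.4 CPM in untreated libraries. The LPS values were tightly grouped and far below the untreated ones. Timp2 fell by 1.63 on the log2 scale (SE 0.144, adjusted p = 6.17e-04), the smallest error of the 8 genes.

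Adam8, a leukocyte protease that cleaves adhesion molecules, had 427, 429 and 439 CPM in LPS libraries, against 740, 761 and 1021 CPM in untreated libraries. No LPS library reached the untreated range. It fell by 0.96 on the log2 scale (SE 0.181, adjusted p = 0.00596). Adam17, the TNF-converting enzyme, had 284, 450 and 447 CPM in LPS libraries and 402, 336 and 505 CPM in untreated libraries. These ranges overlapped, and the log2 fold change of -0.07 had a 95% interval of -0.59 to 0.45 (adjusted p = 0.830). Its sign turned when deposited FPKM values were analysed, with 0.02 on the log2(FPKM + 1) scale.

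Mmp14 and Timp3 did not pass the test. Mmp14 (MT1-MMP), a membrane-bound collagenase that activates pro-Mmp2, had 30.3, 18.8 and 24.2 CPM in LPS libraries and 115, 20.6 and 38.3 CPM in untreated libraries. The untreated group held both a value within the LPS range and a value several times above it. The log2 fold change was -1.25 (SE 0.578, adjusted p = 0.126), and untreated library 1 decided its size: it was -0.31 without that library, and -1.67 with an adjusted p of 0.0291 without untreated library 2. DESeq2 gave -1.27 with an adjusted p of 0.0491.

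Timp3, the inhibitor that binds matrix and blocks Adam17, had 3.06, 2.54 and 3.60 CPM in LPS libraries and 6.78, 8.51 and 3.54 CPM in untreated libraries, overlapping at untreated library 3 (log2 fold change -1.03, SE 0.453, adjusted p = 0.108). Timp3 shares 1733 exon bases with Syn3 on the opposite strand, which had 18 to 89 counts per library. Timp1, a secreted inhibitor of most metalloproteinases, had 2, 4 and 1 counts in LPS libraries and 0, 8 and 0 counts in untreated libraries. A count of 0 allows up to 0.0807 CPM in untreated library 1 and 0.106 CPM in untreated library 3, by counting error only. With all genes kept, its log2 fold change was -0.35 (adjusted p = 0.905), and the exact permutation test on CPM gave p = 1, where 0.1 is the smallest p that 3 against 3 libraries allow.

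**Figure D2:**
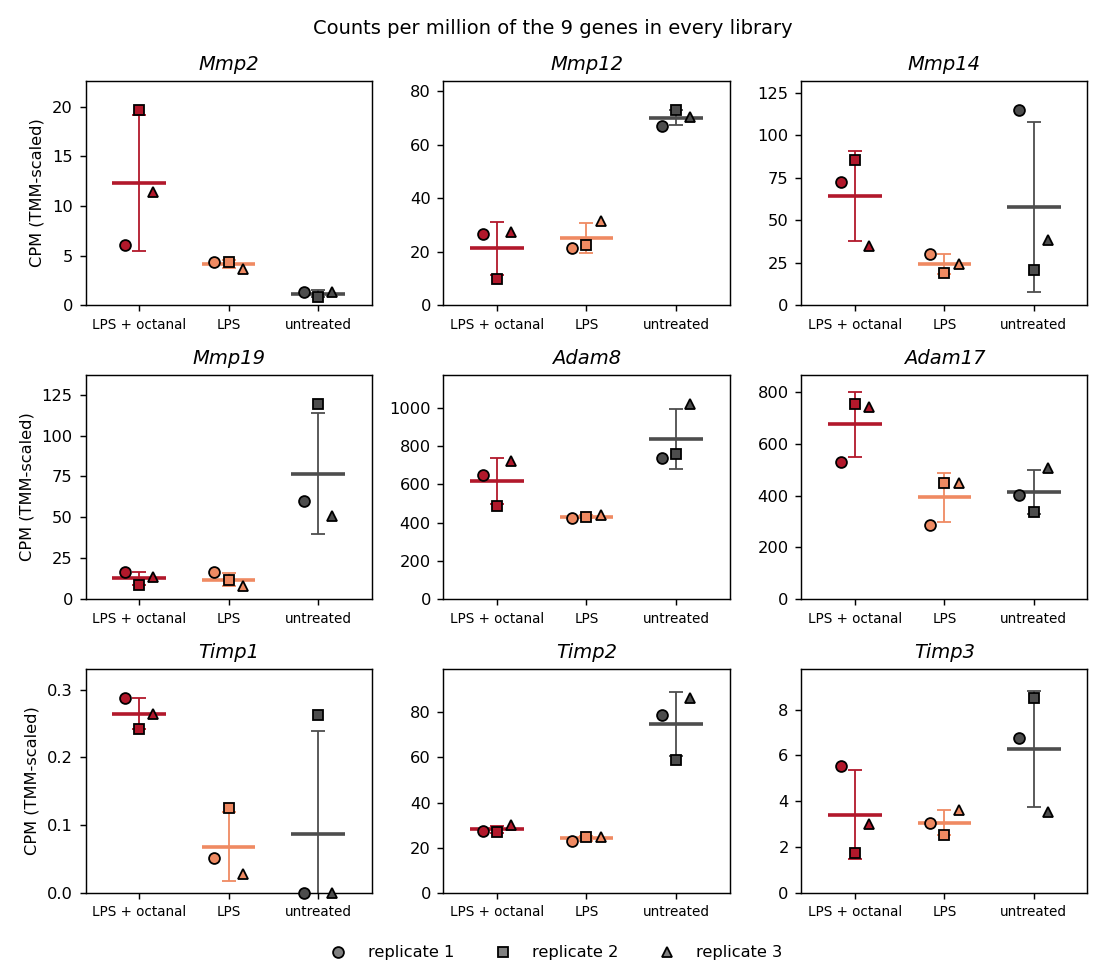
CPM of each gene in every library on linear axes that start at 0, with LPS with octanal, LPS and untreated from left to right, symbols for the replicates, and lines for the mean and SD of 3 libraries. For Mmp12, Mmp19 and Timp2 both treated groups lie below all untreated libraries, for Mmp2 both lie above them, and for Mmp14 untreated library 1, at 115 CPM, stands far above the other untreated libraries.

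Several other marker sets moved with these falls. The summed level of 13 macrophage markers was 861 to 1344 CPM in LPS libraries, against 4948 to 8719 CPM in untreated libraries. Gpnmb took a large share of it, at 4733 CPM on average in untreated and 523 CPM in LPS libraries. Without Gpnmb the sum was 457 to 750 CPM in LPS and 1541 to 2600 CPM in untreated libraries. The sum of 10 classical monocyte markers was 2433 to 3497 CPM in LPS, against 7695 to 17460 CPM in untreated libraries. Lyz2, Chil3 and Itgam took a large share of it, at 6609, 3081 and 2135 CPM on average in untreated libraries. In LPS libraries 8 of 13 macrophage, 8 of 10 classical monocyte and 14 of 15 neutrophil markers were called lower and 8 of 8 tested T cell markers higher, and no marker of these 4 lists was at 0 throughout the LPS libraries. Transcripts of the mitochondrial genome took 4.12% to 7.66% of LPS counts and 2.20% to 3.99% of untreated counts. The part of cell composition or RNA quality in the results on Mmp12, Mmp19, Timp2 and Adam8 was not tested. Mmp2 is best known from stromal cells. The summed level of 11 fibroblast and reticular markers was 78.5 to 108 CPM in LPS libraries and 19.2 to 92.7 CPM in untreated libraries, but most of it was Thy1, which mouse T cells also carry (71.2 CPM on average in LPS, 18.1 CPM in untreated libraries). Without Thy1 the sum was 18.6 to 23.9 CPM in LPS and 14.0 to 61.6 CPM in untreated libraries, and Pdgfra was called lower in LPS (2.46 CPM in LPS, 11.6 CPM in untreated libraries), so the list gives no single direction. The part of stromal cells in the values of Mmp2 was not tested.

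**Figure D3:**
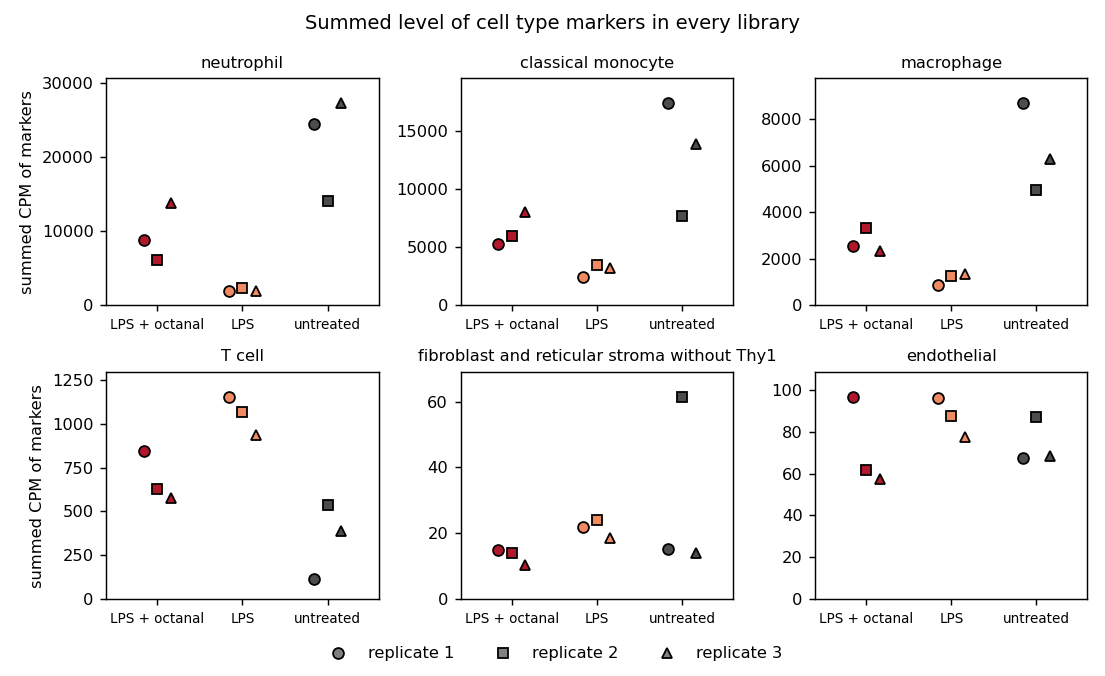
Summed CPM of the marker lists of several cell types, with a point for each library, LPS with octanal, LPS and untreated from left to right, and linear axes that start at 0. Neutrophil, classical monocyte and macrophage sums are lowest in LPS libraries and T cell sums are highest there, and the fibroblast and reticular sum, drawn without Thy1, is led by untreated library 2.

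The second comparison asked what octanal added to LPS. None of the 9 genes was called in LPS with octanal against LPS, and neither was any other gene: 0% of the 15447 genes passed in edgeR's quasi-likelihood test, 0% higher and 0% lower. At an unadjusted p under 0.05 there were 3450 genes, and limma-voom called 0. DESeq2 called 1616 of all genes, among them Mmp2, Adam8 and Adam17. The share of genes tested is not given here for DESeq2, so these 3 calls are not read as a result about the 9 genes. The log2 fold change was positive for 7 of the 8 genes tested, and for 7007 of all 15447 genes tested. Its median was 0.37 over the 8, against -0.05 over all genes. Mmp2, Mmp14, Timp2, Adam8 and Adam17 did not overlap between the groups, which is 5 of the 8 genes tested and held for 38.1% of all genes tested. In each of these the LPS with octanal libraries were the higher ones. All 15 neutrophil markers had positive values in this comparison and all 8 T cell markers negative ones. The macrophage sum was higher with octanal, at 2318 to 3337 CPM against 861 to 1344 CPM in LPS libraries, and Gpnmb took a large share of it (1824 CPM on average in LPS with octanal, 523 CPM in LPS). Without Gpnmb the sum was 852 to 1026 CPM in LPS with octanal and 457 to 750 CPM in LPS libraries, whereas 8 of the 13 macrophage markers had negative log2 fold changes. Transcripts of the mitochondrial genome took 2.31% to 3.10% of counts in LPS with octanal libraries, against 4.12% to 7.66% in LPS libraries. The part of these markers or of RNA quality in the results was not tested.

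Mmp2 had 6.01, 19.6 and 11.4 CPM in LPS with octanal libraries, against 4.32, 4.38 and 3.65 CPM in LPS libraries. All octanal libraries were above all LPS libraries, and octanal library 2 was the highest of the 9. The log2 fold change was 1.58 (SE 0.400, 95% interval 0.68 to 2.49, adjusted p = 0.0796). It was 1.95 with an adjusted p of 0.0440 without octanal library 1, 1.10 without octanal library 2, and 1.62 with an adjusted p of 0.00239 in DESeq2. The fibroblast and reticular sum without Thy1 was 10.4 to 14.8 CPM in LPS with octanal libraries and 18.6 to 23.9 CPM in LPS libraries, while Pdgfrb, a member of that list, averaged 2.42 and 1.87 CPM in these groups.

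Adam17 had 532, 754 and 743 CPM in LPS with octanal libraries, against 284, 450 and 447 CPM in LPS libraries. The groups did not overlap, and library 1 was the lowest of each. The difference was 0.78 on the log2 scale (SE 0.231, 95% interval 0.26 to 1.30, adjusted p = 0.110), and the adjusted p was 0.0184 in DESeq2. Iah1 shares 311 exon bases with Adam17 on the opposite strand and had 555 to 1041 counts per library, far fewer than the 10260 to 28067 counts of Adam17.

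Adam8 had 650, 486 and 722 CPM in LPS with octanal libraries, against 427, 429 and 439 CPM in LPS libraries. The lowest octanal value was above all LPS values. On the log2 scale the difference was 0.52 (SE 0.180, adjusted p = 0.143), and DESeq2 gave 0.0454 as adjusted p. The level of Adam17 relative to Adam8 in FPKM was 0.567, 1.09 and 0.722 in LPS with octanal libraries, 0.467, 0.736 and 0.710 in LPS libraries and 0.382, 0.309 and 0.347 in untreated libraries. Both treated groups lay above the untreated libraries in this ratio and overlapped each other.

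Mmp14 had 72.4, 85.8 and 34.7 CPM in LPS with octanal libraries, against 30.3, 18.8 and 24.2 CPM in LPS libraries. Octanal library 3 came close to the LPS range without entering it. On the log2 scale the groups differed by 1.39 (SE 0.580, 95% interval 0.08 to 2.71, adjusted p = 0.204), and the adjusted p was 0.0483 when only the 6 libraries compared were fitted. Timp2, its partner in pro-Mmp2 activation, had 27.5, 26.8 and 30.0 CPM in LPS with octanal libraries, against 22.8, 24.7 and 24.7 CPM in LPS libraries, a difference of 0.22 on the log2 scale (SE 0.141, adjusted p = 0.370).

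Mmp12, Mmp19 and Timp3 overlapped between the groups. Mmp12 had 26.6, 9.78 and 27.2 CPM in LPS with octanal libraries, and the log2 fold change against LPS was -0.25 (adjusted p = 0.676). Mmp19 had 16.5, 8.57 and 13.4 CPM (0.11, adjusted p = 0.892) and Timp3 5.53, 1.72 and 3.00 CPM (0.15, adjusted p = 0.861). Octanal library 2 was the lowest of its group in all 3 genes and the highest in Mmp2, Mmp14 and Adam17. Its macrophage marker sum of 3337 CPM was the highest of the octanal libraries and its neutrophil sum of 6114 CPM the lowest.

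Timp1 had 10, 9 and 8 counts in LPS with octanal libraries, against 2, 4 and 1 in LPS libraries. All octanal counts were above all LPS counts, but they amount to 27 and 7 reads in all. The exact permutation test on CPM gave p = 0.1, the smallest possible here, and with all genes kept the edgeR log2 fold change was 1.94 (adjusted p = 0.516). Timp1 lies within an intron of Syn1, on the opposite strand, with no shared exon bases.

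The third comparison set LPS with octanal against untreated cells and asked what remained different after both treatments. Of the 8 genes tested 4 were called, Mmp2 higher and Mmp12, Mmp19 and Timp2 lower, where 8.67% of all genes passed, 2.63% higher and 6.03% lower. The median log2 fold change was -0.66 over the 8 and -0.01 over all genes. The groups did not overlap for these 4 genes and for Adam8 and Adam17, 6 of the 8, where 29.8% of all genes tested did not overlap. This comparison shares its untreated libraries with the first and its octanal libraries with the second. Cell type markers moved here as well: of 13 macrophage markers 9 were called lower and 1 higher (median log2 fold change -2.46), of 10 classical monocyte markers 5 were lower, of 15 neutrophil markers 6, and of 5 tested eosinophil, basophil and mast cell markers 4. The macrophage sum was 2318 to 3337 CPM in LPS with octanal and 4948 to 8719 CPM in untreated libraries. Without Gpnmb it was 852 to 1026 CPM in LPS with octanal and 1541 to 2600 CPM in untreated libraries. The part of these cell type markers in the 4 calls was not tested.

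Mmp2 averaged 12.3 ± 6.86 CPM in LPS with octanal libraries and 1.18 ± 0.312 CPM in untreated libraries (SD, n = 3 each), a ratio of 10.5. On the log2 scale Mmp2 rose by 3.38 (SE 0.436, adjusted p = 0.00461). The call held under every alternative that tested it, including the removal of each library in turn. Mmp19 averaged 12.8 CPM (8.57 to 16.5) in LPS with octanal libraries, against 76.7 CPM (51.0 to 119) in untreated libraries, and fell by 2.58 on the log2 scale (SE 0.404, adjusted p = 0.00933). Mmp12 averaged 21.2 ± 9.90 CPM, against 70.1 ± 2.94 CPM, and fell by 1.73 (SE 0.343, adjusted p = 0.0202; 0.0534 when only the 6 libraries compared were fitted). Timp2 averaged 28.1 ± 1.70 CPM, against 74.7 ± 14.1 CPM, and fell by 1.41 (SE 0.143, adjusted p = 0.00192).

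The other genes were not called. Adam17 averaged 676 ± 125 CPM in LPS with octanal libraries and 415 ± 85.3 CPM in untreated libraries, 0.71 apart on the log2 scale (SE 0.231, adjusted p = 0.0907, and 0.0379 in DESeq2). Adam8 averaged 619 ± 121 CPM, against 840 ± 157 CPM, with a log2 fold change of -0.44 (adjusted p = 0.154), and all its octanal libraries were below all untreated ones. Mmp14 averaged 64.3 ± 26.5 CPM, against 57.9 ± 50.1 CPM (log2 fold change 0.15, adjusted p = 0.889), and the value became 1.11 without untreated library 1. Timp3 averaged 3.41 ± 1.94 CPM, against 6.28 ± 2.52 CPM (log2 fold change -0.88, adjusted p = 0.237). For Timp1 the exact permutation test gave p = 0.2.

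**Figure D4:**
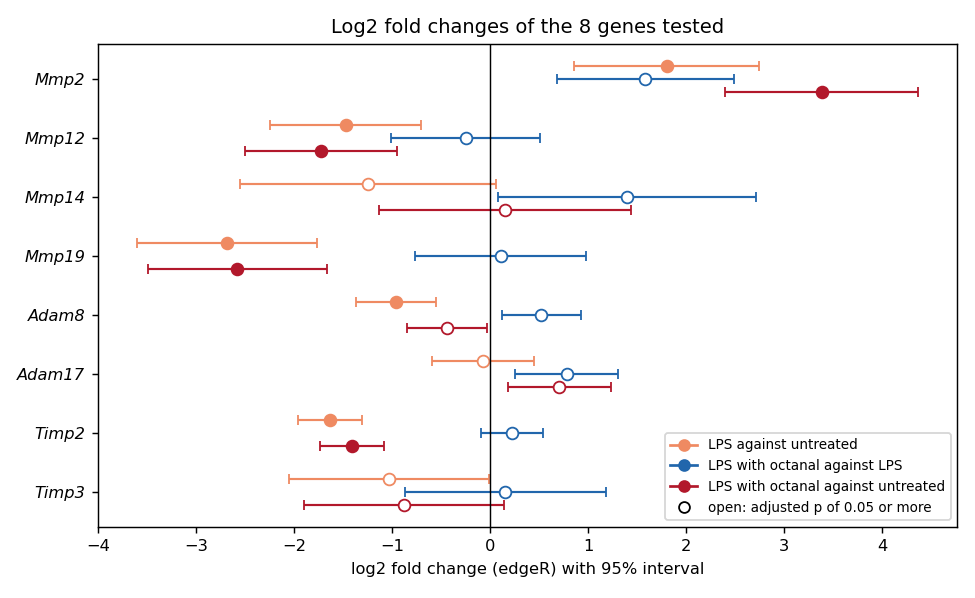
Log2 fold changes from the edgeR fit of the 8 genes tested, with 95% intervals, in LPS against untreated, LPS with octanal against LPS and LPS with octanal against untreated, where open symbols mark an adjusted p of 0.05 or more. The intervals of Mmp19, Mmp12 and Timp2 lie below 0 in both comparisons with untreated cells and include 0 against LPS, whereas that of Mmp2 lies above 0 in all 3 comparisons although its adjusted p against LPS was 0.0796.

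Across the 9 libraries the genes fell into patterns, given here as Pearson correlations of log2 CPM that all share the same libraries and group differences. Mmp12, Mmp19 and Timp2 ran together (0.842 to 0.869). Adam8 ran with Timp2 (0.852) and less closely with Mmp19 (0.737) and Mmp12 (0.729). Timp3 ran with Mmp12 (0.804) and Mmp19 (0.784) and less closely with Timp2 (0.574). Mmp2 ran against Mmp12 (-0.924), Mmp19 (-0.853), Timp3 (-0.771) and Timp2 (-0.753). Mmp14 followed neither Mmp2 (0.229) nor Mmp12 (-0.117). The genes most like each were sought among 9771 tested genes with a mean of at least 5 CPM over all 9 libraries. Each of these had an Ensembl identifier and a symbol that is not that of a predicted gene. For Mmp2 they were Nfkbia (0.982), the NF-kappaB inhibitor, Gpr84 (0.982), a receptor for medium-chain fatty acids, and Marcksl1 (0.979). For Mmp12 the nearest was Hivep1 (0.983), for Mmp14 Casp1 (0.972), for Mmp19 Il1r2 (0.979), for Timp2 Klra17 (0.991), for Timp3 Tbxas1 (0.961), for Adam8 Klhdc4 (0.997) and for Adam17 Insig1 (0.993).

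Promoter windows from RefSeq on GRCm38.p6, covering 250 bases before to 50 after a start, were found for 7 of the 9 genes, Mmp2 and Mmp19 being those without an entry. They were searched on both strands for TGANTCA (AP-1), AGGAAG (PU.1) and the kappaB and interferon response elements, both with open central positions, which 7.81%, 35.4%, 1.47% and 3.44% of 32851 windows of the same length hold. The windows of Mmp12 and Timp2 are shown because both genes were lower in both treated groups. Mmp12 has 2 windows, and the AP-1 letters, in capitals, begin 44 bases before the start of the downstream one (chr9:7347124-7347423, plus strand, 40.7% G or C). The window of Timp2 (chr11:118355362-118355661, minus strand, 68.7% G or C) holds none of the searched letters. The start used for it lies 329 bases from the GENCODE gene start, and that of the downstream Mmp12 window 2993 bases. Both windows lie inside the annotated genes, so neither holds sequence from before the GENCODE gene start.
Mmp12: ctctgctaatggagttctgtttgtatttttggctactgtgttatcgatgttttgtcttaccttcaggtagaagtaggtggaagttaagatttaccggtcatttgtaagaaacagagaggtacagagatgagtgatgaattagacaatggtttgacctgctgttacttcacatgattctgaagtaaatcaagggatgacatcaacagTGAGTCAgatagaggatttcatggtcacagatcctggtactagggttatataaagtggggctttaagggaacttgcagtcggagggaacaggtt
Timp2: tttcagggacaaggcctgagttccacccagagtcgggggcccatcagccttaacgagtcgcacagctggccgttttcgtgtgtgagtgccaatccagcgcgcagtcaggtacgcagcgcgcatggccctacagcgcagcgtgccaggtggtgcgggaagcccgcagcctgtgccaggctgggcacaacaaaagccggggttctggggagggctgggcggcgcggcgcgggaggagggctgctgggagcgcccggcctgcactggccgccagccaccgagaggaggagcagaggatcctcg

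The PU.1 letters were found in the upstream window of Mmp12 and in those of Mmp14, Timp1, Timp3 and Adam17. The kappaB and interferon letters were in none of the 8 windows, and the window of Adam8 held none of the letters searched. These matches describe letters and not bound sites.

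The counts for related genes that follow stand beside the same shares of all genes, 15.2% called higher and 17.6% lower in LPS against untreated, and 2.63% and 6.03% in LPS with octanal against untreated. Of the other metalloproteinases, 12 of 19 were tested. Mmp9, Mmp8 and Mmp25, which neutrophils carry, fell in LPS against untreated: Mmp9 averaged 30.8 ± 9.70 CPM in LPS and 776 ± 159 CPM in untreated libraries (log2 fold change -4.65, adjusted p = 0.00161), Mmp8 fell by 2.30 and Mmp25 by 1.63. With Mmp27, 4 were called lower, and the 3 called higher were Mmp15, Mmp17 and Mmp20, at no more than 2.96 CPM on average in LPS libraries and lost in 12, 12 and 4 alternatives. In LPS with octanal against untreated only Mmp25 was called, lower by 1.44 on the log2 scale, and 8 alternatives lost that call. In LPS with octanal against LPS Mmp9 had 191, 75.3 and 457 CPM in octanal libraries, against 31.1, 40.4 and 21.0 CPM in LPS libraries (log2 fold change 2.97, adjusted p = 0.0569). Mmp8 and Mmp9 belong to the neutrophil list used above. The sum of its other 13 markers was 5800 to 12670 CPM in LPS with octanal, 1749 to 2129 CPM in LPS and 12880 to 25700 CPM in untreated libraries, and its part in these values was not tested.

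Of 14 other ADAM genes 9 were tested, and 3 were called in LPS against untreated, a share close to the 32.8% of all genes. They were lower, led by Adam15 (28.2 ± 0.700 CPM in LPS, 80.8 ± 27.7 CPM in untreated libraries, log2 fold change -1.52, adjusted p = 0.00255) and Adam9 (-0.65, adjusted p = 0.00607). Adam10, the closest relative of Adam17, had a log2 fold change of -0.335 with an adjusted p of 0.0468, a call lost in 15 alternatives. None was called in either comparison of LPS with octanal.

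Adam17 needs helpers to leave the endoplasmic reticulum and to stay at the surface. Of the 10 tested genes of maturation and trafficking, 1 was higher and 3 lower in LPS against untreated, near the 32.8% of all genes called, and none was called in the other comparisons. Frmd8, which stabilises the iRhom and Adam17 complex, averaged 210 ± 28.6 CPM in LPS with octanal, 310 ± 28.7 CPM in LPS and 137 ± 36.6 CPM in untreated libraries, and rose in LPS against untreated by 1.18 (adjusted p = 0.00373). Rhbdf2, the iRhom of immune cells, averaged 138 ± 48.3, 89.1 ± 9.71 and 104 ± 10.4 CPM in LPS with octanal, LPS and untreated libraries and was not called, with -0.23 for LPS over untreated (adjusted p = 0.448) and 0.63 for octanal over LPS (adjusted p = 0.144). Tspan5, a tetraspanin partner of Adam10, fell by 1.56 in LPS against untreated (adjusted p = 0.00153).

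Of 24 genes whose proteins Adam17 sheds, 20 were tested. In LPS against untreated 4 were higher and 6 lower, where 15.2% and 17.6% of all genes were, and in LPS with octanal against untreated 4 were higher and 3 lower, where 2.63% and 6.03% of all genes were. Tnf, its best known substrate, had 183, 335 and 320 CPM in LPS with octanal libraries, 106, 141 and 113 CPM in LPS libraries and 29.9, 34.8 and 47.2 CPM in untreated libraries, with no overlap between any pair of groups. Against untreated cells it rose by 1.69 on the log2 scale in LPS (adjusted p = 0.00249) and by 2.91 with octanal added (adjusted p = 0.00131). Between the treated groups the value was 1.22 (adjusted p = 0.0582). The adhesion molecule Icam1 rose in both comparisons with untreated cells (1.13 and 1.10). The receptors Il1r2 and Mertk fell in LPS against untreated by 3.55 and 3.02; without untreated library 2 the value of Il1r2 was -2.82. Mertk, an efferocytosis receptor, had 1.45 to 3.03 CPM in LPS with octanal, 2.85 to 6.06 CPM in LPS and 12.8 to 60.8 CPM in untreated libraries. It is also one of the macrophage markers above.

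Lrp1, the endocytic receptor that removes metalloproteinases and TIMP complexes, averaged 275 ± 6.58 CPM in LPS with octanal, 144 ± 28.1 CPM in LPS and 916 ± 319 CPM in untreated libraries. Against untreated cells it fell by 2.67 in LPS (adjusted p = 6.29e-04) and by 1.74 in LPS with octanal (adjusted p = 0.00565). Against LPS the LPS with octanal value was 0.93 on the log2 scale (adjusted p = 0.0801). Of 10 surface partners 5 fell in LPS against untreated, among them Cd44 (-1.42), which docks metalloproteinases, and the urokinase receptor Plaur (-2.21), and Itgav and Plau fell in LPS with octanal against untreated, calls that 4 and 12 alternatives lost.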

How the data were processed

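The deposited table holds raw counts of each gene in each library, per the file headers, beside FPKM values that the authors had scaled by gene length and library. Per the submitters' processing notes, reads were placed on GRCm38. RNA was extracted with TRIzol and made into mRNA libraries for Illumina sequencing, per the labels' protocols. Neither the aligner nor the counting tool, nor whether it used strand, is given in the sources used here. The table held 26770 gene rows, 4735 of them loci without an Ensembl identifier, and 10 lines of text without values were left out.

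In R 4.3.3, edgeR 4.0.16 was applied to the counts in a single quasi-likelihood fit of all 9 libraries with TMM factors of 0.923 to 1.07, a mean per group and the filter filterByExpr. P-values were adjusted by the Benjamini-Hochberg method over all 15447 genes tested, and an adjusted p under 0.05 was a call. Adjusted p-values without a named tool are from this test. Values per library are CPM on TMM-scaled totals. Timp1 failed the filter and was given as counts, with an exact two-sided permutation test. Total counts of 29594291 to 38388421 set the precision of single values, and limits from 3 counts cover counting error only. Between libraries, the ratio of a gene's count per total count to its FPKM varied within 1.09-fold, except for Mmp12 (1.25-fold) and Timp1 (1.44-fold).

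The 9 genes, the other lists and the cell type markers were chosen with earlier results of these data known, and the lists were written from knowledge of the genes. Of each list, up to 4 genes of lowest p with at least 5 CPM in the higher group could be named, beside the 9 genes and Mmp8, Mmp9 and Mmp25; Tnf, Rhbdf2, Mertk, Il1r2 and genes given to explain a count were named beyond this rule, after their values were seen. Alternatives were DESeq2 1.42.0, limma 3.58.1 (voom, or trend on log2 FPKM with a pseudocount of 1 or 0.1), other size factors, other filters, fewer libraries or loci, the replicate number as a block, and each library left out in turn. Between replicates of a group, the chi-square over genes was 45.0 to 152 times its degrees of freedom, above counting error. The labels do not say that they came from separate animals or cultures, so p-values measure the spread between these samples, which may be technical. The labels name no sequencing batch. Marker sums without Thy1, without Gpnmb and without Mmp8 and Mmp9 were added after seeing the data. The fit was tested on simulated data, with a criterion that replaced a first one which had been narrowly missed. Olfr2 was not analysed here.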

Additional observations from a re-analysis of the deposited data

How the results depend on the processing

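Of the log2 fold changes of the 8 genes tested, under all alternatives, 426 kept their direction and side of the threshold, 8 passed it newly, 3 no longer passed and 13 turned sign; Mmp2 and Timp3 gave no value under the filter at 10 CPM, and neither did Timp1 except in the test of all genes. No call reversed. The turned values without a leave-one-out were those of Adam17 in LPS against untreated, 0.019 on both FPKM scales, and of Timp3 in LPS with octanal against LPS, -0.01 with limma-voom and -0.056 on the log2(FPKM + 0.1) scale. With each library left out in turn, Adam17 ranged over -0.239 to 0.091 in LPS against untreated. In LPS with octanal against LPS Mmp19 ranged over -0.10 to 0.416, Timp3 over -0.346 to 0.487 and Mmp12 over -0.463 to 0.11. Mmp14 ranged over -0.249 to 1.108 in LPS with octanal against untreated. The cause was not tested.

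Counts over all genes moved more. In LPS with octanal against LPS they were 0 in the main setting, 1616 with DESeq2, 279 without a filter and 323 with the filter at 10 CPM. They were 1380 with the 6 libraries compared, 118 without loci lacking an Ensembl identifier and 149 on the log2(FPKM + 0.1) scale. Of the 9 genes, 3 were called with DESeq2 and 1 with the 6 libraries. How many genes each setting tested is not given here, so these member counts have no share of all genes beside them. In LPS with octanal against untreated, 1339 genes became 2626 with DESeq2 and 404 with the 6 libraries. Leaving out each library gave 2387 to 5658 genes in LPS against untreated (5072 in the main setting), 0 to 584 in LPS with octanal against LPS, with 0 to 1 of the 9 genes, and 298 to 2137 in LPS with octanal against untreated. The log2(FPKM + 0.1) scale shifted the median of all genes by 0.11 in LPS against untreated, and there 59.8% of calls were higher, against 46.4%. Same-numbered libraries correlated at -0.085 to 0.163 in their deviations from group means, and 1 of 9 correlated best with its own number. With 3 libraries per group, these values cannot settle whether equal replicate numbers share an animal or culture. With the replicate number as a block, 4257, 0 and 923 genes and 5, 0 and 4 of the 9 genes were called in the 3 comparisons. Depth limits Timp1, and to a lesser degree Mmp2 and Timp3.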

Other observations

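Matrix proteins, the substrates of these enzymes, were counted in a list of 27 genes of which 23 were tested. In LPS against untreated 1 was called higher and 5 lower, where 15.2% and 17.6% of all genes were. Spp1, or osteopontin, had a log2 fold change of -2.24 (adjusted p = 0.00474). The proteoglycan Vcan averaged 18.1 CPM in LPS and 97.5 CPM in untreated libraries (-2.43, adjusted p = 0.00574), and its value was -1.75 without untreated library 1. Lamc1, a laminin chain, averaged 22.8 CPM in LPS and 62.7 CPM in untreated libraries (-1.46, adjusted p = 0.00831). None of the 23 was called in edgeR's quasi-likelihood test when octanal was set against LPS alone. Against untreated cells the octanal group had 1 call, Fn1 with -2.77 (adjusted p = 0.0321), a call that 5 alternatives lost and a value of -1.97 without untreated library 1.

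Of 19 ADAMTS proteases, secreted relatives of the ADAM family, 7 were tested. In LPS against untreated Adamts10 and Adamts6 were called higher (0.73 and 0.79 on the log2 scale) and Adamts7 lower (-2.09), with adjusted p-values of 0.0154, 0.0269 and 0.0158. These calls were lost in 1, 6 and 2 alternatives. None of the 7 was called in the other comparisons in edgeR's quasi-likelihood test.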
